A study of Homo sapiens with 12 samples.

Results

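The samples described here are 6 of the 12 arrays of a study of lung cancer lines, namely those of A549, an established human line derived from a lung adenocarcinoma. The members are the 3 arrays of unselected A549 cells (A0R, 0 rounds of selection) and the 3 arrays of A549 cells taken through 3 rounds of selection in mice (A3R). Per the series' design text, selection favoured cells that formed tumour nodules in the lungs after injection into a vein. The other 6 arrays are the same groups of HTB56, a lung cancer line also known as Calu-6, and enter here through the shared estimate of the spread and 1 comparison of changes. None of the groups had received 5-azacytidine. Total RNA was extracted on columns, labelled with the Affymetrix whole-transcript workflow and hybridised to arrays of human probes, and each value is a log2 RMA signal, so that 1 unit is a 2-fold difference. The labels do not say whether A3R is a pool or a clone, from how many mice or nodules it was recovered, or whether each of the 3 replicates was grown on its own. The p-values therefore rest on how far these arrays spread, which may be technical.

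As background, cells that reach the lung through the blood first lodge in its small vessels and must then survive, leave the vessel and grow. Several chemokines of the CXC family, among them CXCL1 and CXCL8, attract neutrophils through the receptor CXCR2, and their genes are classical targets of the transcription factor NF-kB. Cadherins hold neighbouring cells together, E-cadherin mainly in epithelia and N-cadherin in neural and mesenchymal tissue. A549 cells are known to carry transcripts typical of liver, among them fibrinogen chains and other plasma proteins.

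The array medians of the A549 arrays lay between 5.59 and 5.67, and arrays of 1 group correlated across genes with r between 0.988 and 0.992. All 17 tested markers of the A549 line, such as AKR1C1, AKR1B10 and ALDH1A1, lay above the 20th percentile of every array. Their mean level was 11.12 to 11.29 in A0R and 10.87 to 10.93 in A3R, and 4 of the 17 were called, CPS1 higher and CDH1, F5 and FGB lower in A3R. Of the endothelial markers, 0 of 12 were called, and of the leukocyte markers 0 of 15. Mean levels were 4.89 to 4.99 in A0R and 4.88 to 5.08 in A3R for the endothelial list and 4.93 to 5.02 and 4.89 to 5.02 for the leukocyte list. The fibroblast list had mean levels of 5.54 to 5.82 and 5.76 to 5.86, and 1 of its 11 tested genes was called, the complement gene C1R. When only the 6 A549 arrays were fitted, 2 of the 11 were called, both higher. The array named A0R replicate 2 stood apart on 39 genes whose median in HTB56 exceeds that in A549 by at least 4 log2 units. All 39 lay above the A549 median on that array, with a median deviation of 0.79, against -0.14 to 0.06 on the other 5 A549 arrays. For that reason counts are given with and without this array, and the plot of deviations by array shows it. Of the 39 genes, 0 were called in A3R against A0R by limma (6 at an unadjusted p below 0.05, a level met by 9.92% of all genes tested), and 2 were called when this array was left out. Whether this array holds some RNA of HTB56 was not tested.

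**Figure D1:**
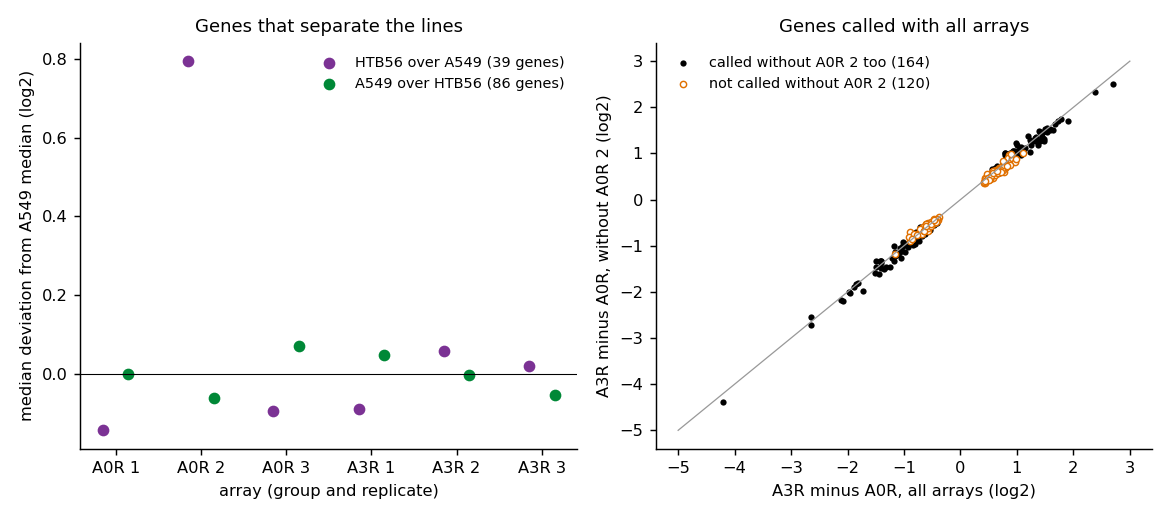
Left, for each A549 array (x axis), the median deviation from the median of the 6 A549 arrays (y axis, log2) over 39 genes higher in HTB56 (purple) and 86 genes higher in A549 (green); A0R replicate 2 is at 0.79 for the first set. Right, the change of each gene called with all arrays (x axis, log2) against its change without A0R replicate 2 (y axis, log2); all 284 points keep their sign, and 120 (open) are no longer called.

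The comparison asks which transcripts differ between A549 cells before and after selection for growth in the lung. Selected cells carried more mRNA of neutrophil-attracting chemokines, of N-cadherin, of the vesicle protein SYT13 and of basement membrane collagens, and less of neurotensin, coagulation factor V and fibrinogen beta chain, while liver and kidney type genes went both ways. Of 16922 genes tested, 284 (1.68%) were called at a limma adjusted p below 0.05, 158 higher (0.934%) and 126 lower (0.745%). At least 2-fold changes were seen for 47 of the genes called higher and 40 of those called lower. The median change over all genes was -0.005 and the median size of change among the called genes 0.79. For all 284 called genes the 3 A3R arrays did not overlap the 3 A0R arrays, which was true of 12.7% of all genes tested. In bulk RNA, a change in the share of cells that carry a transcript and a change in the amount per cell cannot be told apart.

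A fit that held the replicate number as a block called 546 genes (3.23%), 295 higher (1.74%) and 251 lower (1.48%), and these included all 284. Without A0R replicate 2, 174 genes (1.03%) were called, 89 higher (0.526%) and 85 lower (0.502%), of which 164 were among the 284, and with both that array left out and the block 326 (1.93%). Counts were 167 without A0R replicate 1, 175 without A3R replicate 2 and 172 (1.02%) when only the 6 A549 arrays were fitted (294, or 1.74%, with the block, which left 66 of the 284 uncalled), and 197 to 253 without each of the remaining A549 arrays. A set of 123 genes, 63 higher and 60 lower, was called in each of the following fits: all arrays, the block, each A549 array left out in turn, and the 6 A549 arrays with and without the block. The fit with both A0R replicate 2 left out and the block was not required for this set. CDH1, a member, was not called in it (limma adjusted p = 0.0628). All 30 genes of the 15 largest rises and 15 largest falls belonged to that set. In the paragraphs below a gene whose calls depended on single arrays is marked as such, and all other called genes given with values belong to the 123.

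**Figure D2:**
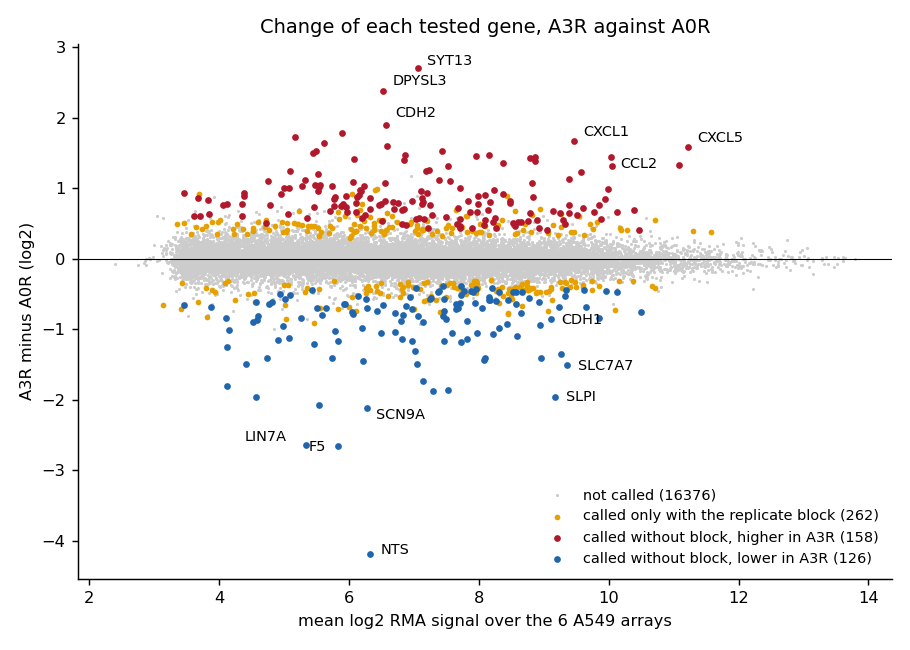
Change of each tested gene (y axis, A3R minus A0R, log2) against its mean level over the 6 A549 arrays (x axis, log2 RMA signal). Red and blue points are the 158 and 126 genes called without a block, orange points the 262 called only with the replicate block; SYT13 lies highest and NTS lowest.

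The largest rise was that of SYT13, a synaptotagmin that takes part in vesicle traffic. It read 5.45, 5.32 and 6.38 on A0R replicates 1, 2 and 3 and 8.58, 8.18 and 8.49 on A3R replicates 1, 2 and 3, the order kept throughout. The nearest arrays of the groups were 1.80 log2 units apart, and the change was 2.70 (SE 0.22, limma adjusted p = 1.26e-05). DPYSL3, which encodes a cytoskeletal protein of growing axons, went from 5.29, 5.24 and 5.48 to 7.48, 7.44 and 8.23 (change 2.38, SE 0.22, limma adjusted p = 3.48e-05). All 3 A0R arrays of DPYSL3 lay within 0.23 of each other, while A3R replicate 3 was the highest. CDH2, the gene of N-cadherin, read 5.56, 5.23 and 6.07 in A0R and 7.47, 7.13 and 7.98 in A3R. Replicate 3 was highest and replicate 2 lowest in both groups, so that the same-number pairs differed by 1.91, 1.90 and 1.90, and the limma adjusted p was 0.000164 without and 2.22e-05 with the replicate block. GASK1B, a kinase-like protein of the Golgi, rose from 4.23, 4.24 and 4.46 to 6.18, 6.14 and 5.80. EFEMP1, which encodes fibulin-3 of the extracellular matrix, rose from 4.42, 4.55 and 5.41 to 6.29, 5.97 and 7.04, with replicate 3 highest in both groups (change 1.64, SE 0.27, limma adjusted p = 0.00391). FAM133A, a testis-expressed gene, rose by 1.53 (SE 0.16), and DNAJC12, a co-chaperone gene, by 1.46 (SE 0.17).

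**Figure D3:**
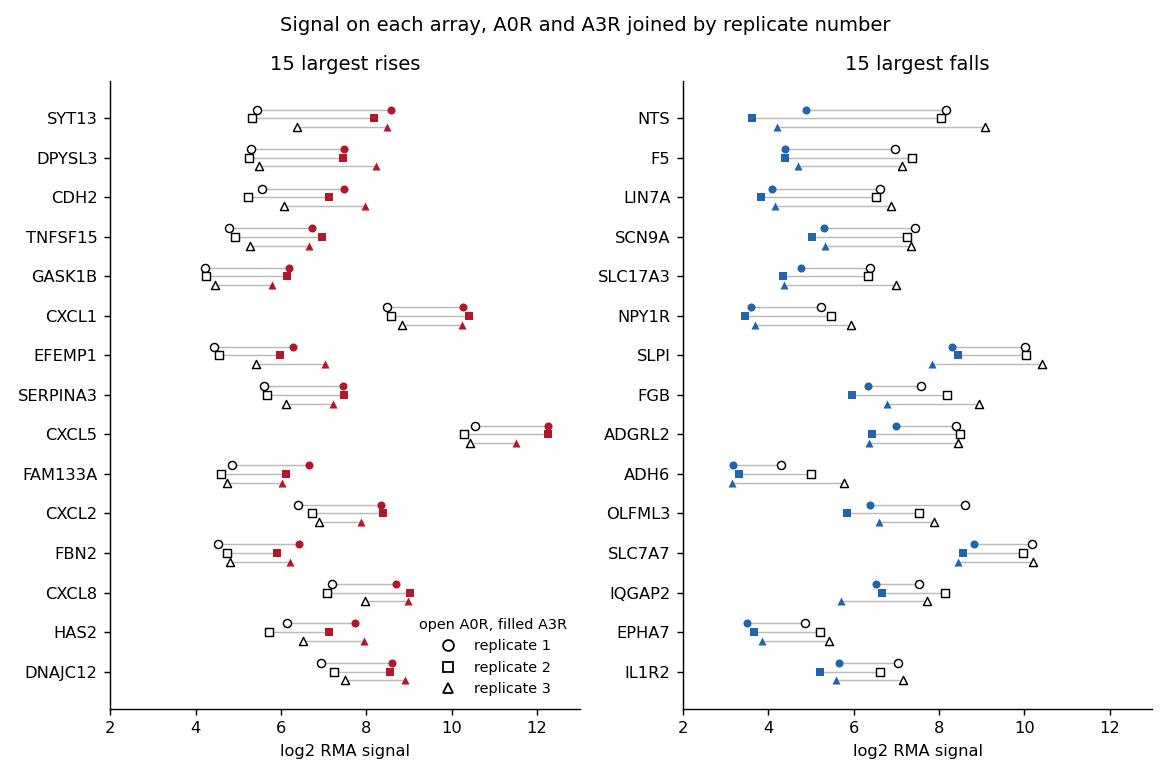
Log2 RMA signal (x axis) of the 15 largest rises (left) and 15 largest falls (right) on each A549 array, A0R open and A3R filled, with arrays of the same replicate number joined. The 30 genes were chosen among those whose groups do not overlap, so by that choice the 3 filled symbols lie on 1 side of the 3 open ones.

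The largest fall was that of NTS, the precursor gene of the secreted peptide neurotensin. It read 8.16, 8.04 and 9.08 in A0R and 4.88, 3.61 and 4.19 in A3R, a difference of -4.20 (SE 0.29, limma adjusted p = 2.73e-06) or 18.4-fold. The A3R arrays spread over 1.26 log2 units, and the nearest arrays of the groups were 3.16 units apart. LIN7A, a scaffold gene of cell polarity and synapses, fell from 6.61, 6.51 and 6.87 to 4.08, 3.83 and 4.15 (change -2.64, SE 0.17, limma adjusted p = 1.24e-06). SCN9A, which encodes a voltage-gated sodium channel, fell from 7.44, 7.24 and 7.35 to 5.30, 5.03 and 5.33 (change -2.12, SE 0.13). The nearest arrays were 2.36 and 1.91 apart for LIN7A and SCN9A. SLPI, a secreted inhibitor of leukocyte proteases, fell from 10.02, 10.04 and 10.42 to 8.31, 8.45 and 7.83. ADGRL2, a latrophilin adhesion receptor, fell from 8.41, 8.48 and 8.45 to 6.99, 6.42 and 6.35. OLFML3, a secreted matrix protein, fell by 1.74 (SE 0.25) and IQGAP2, a scaffold of the actin cytoskeleton, by 1.50 (SE 0.22). IL1R2, the decoy receptor of interleukin-1, fell from 7.03, 6.61 and 7.16 to 5.65, 5.22 and 5.59.

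Chemokines were the list with the highest share of called genes. Among the 22 tested, 7 (31.8%) passed as higher and 0 as lower, against 0.934% and 0.745% of all genes, and the median change of the 22 was 0.22 against -0.005. The count was 7 in the plain fit, with the block, without each A549 array in turn and with the 6 A549 arrays alone. The 7 were CXCL1, CXCL2, CXCL5, CXCL6 and CXCL8, whose products attract neutrophils, and CCL2 and CX3CL1, whose products attract monocytes. The promoters of the CXC genes are shown because these genes moved together and lie beside each other on chromosome 4. Each stretch is a window of 100 bases that lies upstream of the start site and ends 23 to 37 bases before it, in the gene's own direction, from RefSeq promoters of build GRCh38.p14, with GGAATTTCC, a kB-type motif (the kind of sequence NF-kB binds), in capitals.
CXCL8: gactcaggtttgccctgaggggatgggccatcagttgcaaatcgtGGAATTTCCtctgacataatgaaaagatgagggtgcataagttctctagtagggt
CXCL6: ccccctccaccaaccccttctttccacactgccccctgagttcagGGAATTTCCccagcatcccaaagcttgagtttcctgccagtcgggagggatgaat
CXCL1: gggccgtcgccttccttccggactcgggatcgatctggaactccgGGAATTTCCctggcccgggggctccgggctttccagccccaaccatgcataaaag
CXCL5: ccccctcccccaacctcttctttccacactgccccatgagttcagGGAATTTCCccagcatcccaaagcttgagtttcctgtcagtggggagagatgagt
CXCL2: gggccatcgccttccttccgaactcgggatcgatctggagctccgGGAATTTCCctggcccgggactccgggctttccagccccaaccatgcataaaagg
CXCL3: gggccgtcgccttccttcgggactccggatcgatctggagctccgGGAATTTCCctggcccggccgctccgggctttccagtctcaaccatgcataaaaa
They lie at chr4:73740433-73740532, chr4:73836544-73836643 and chr4:73869270-73869369 on the plus strand and at chr4:73998713-73998812, chr4:74099218-74099317 and chr4:74038713-74038812 on the minus strand, and the motif begins -91 to -77 bases from the start site.

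The motifs searched were GGAATTTCC and TGANTCA, an AP-1-type motif in which N is any base, on both strands of the 250 bases before the start site. GGAATTTCC was present in 117 of 27305 promoters of the table (0.428%) and 47 of the 13181 tested genes with an entry (0.357%). Of the genes called higher, 7 of 131 held it (5.34%), 5 of them the CXC genes above, which are related copies and not independent. It was the only kB-type string counted, and every promoter shown carries it, so this share cannot be read against that of all tested genes. Of the genes called lower, 0 of 100 held it, which at a share of 0.357% is no contrast. TGANTCA was in 4.63% of promoters of tested genes, in 17 of the 131 called higher and in 5 of the 100 called lower. CXCL3, which carries GGAATTTCC like its neighbours, read 6.19, 6.12 and 6.15 in A0R and 6.47, 6.48 and 6.23 in A3R and was not called (change 0.24, SE 0.13, limma adjusted p = 0.585). A match of letters is a description of the sequence only.

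CXCL1 read 8.48, 8.57 and 8.84 in A0R and 10.26, 10.40 and 10.25 in A3R (change 1.67, SE 0.15, limma adjusted p = 2.37e-05). CXCL5 read 10.54, 10.29 and 10.44 against 12.26, 12.25 and 11.51 (change 1.58, SE 0.17, limma adjusted p = 0.000126), with A3R replicate 3 below the other A3R arrays. CXCL2 read 6.40, 6.72 and 6.89 against 8.33, 8.39 and 7.88, again with A3R replicate 3 lowest in its group. CXCL8, the gene of interleukin-8, read 7.20, 7.08 and 7.97 against 8.69, 9.02 and 8.97, and A0R replicate 3 was the nearest of its group to A3R. CXCL6 read 5.39, 5.28 and 5.39 against 6.38, 5.95 and 6.34. CCL2 went from 9.25, 9.17 and 9.53 to 10.74, 10.85 and 10.68 (change 1.44, SE 0.12, limma adjusted p = 1.21e-05) and CX3CL1 from 6.48, 6.42 and 6.78 to 7.87, 7.75 and 7.79 (change 1.24, SE 0.12, limma adjusted p = 4.98e-05). In none of these 7 did an A3R array reach down to an A0R array. Between CXCL8 and EREG lie 12 tested genes, of which 6 were called higher: CXCL8, CXCL6, CXCL1, CXCL5, CXCL2 and EREG, a ligand of the EGF receptor. The platelet chemokine genes PF4 (0.28, SE 0.10), PF4V1 (-0.11, SE 0.10) and PPBP (-0.18, SE 0.14) in the same row were not called. EREG rose by 0.57 (SE 0.13, limma adjusted p = 0.0377) and was not called without A0R replicate 2 (0.169), A0R replicate 3 (0.081) or any A3R array (0.0791 to 0.13). CXCL1, CXCL2 and CXCL3 are close in sequence, and cross-hybridisation between their probes was not tested.

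**Figure D4:**
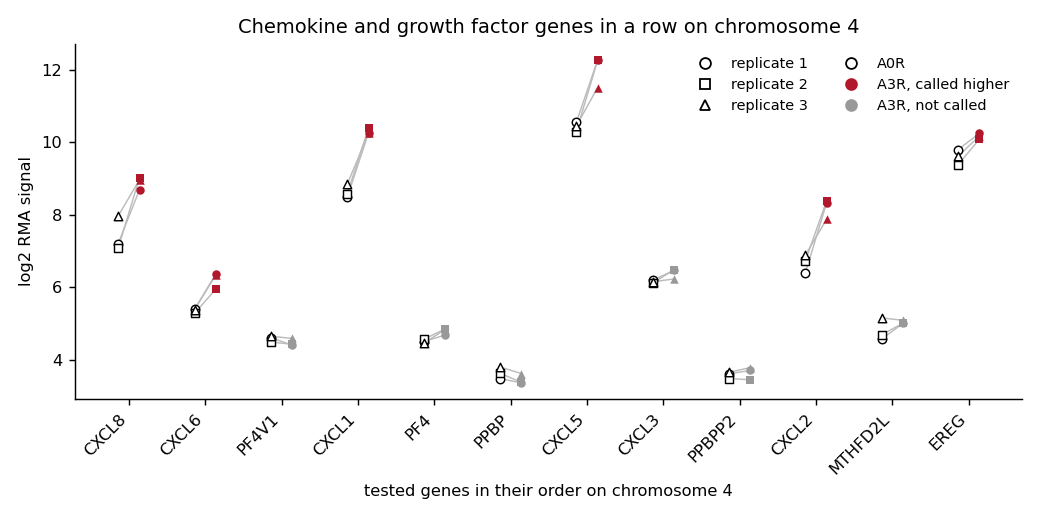
Log2 RMA signal (y axis) of 12 tested genes in their order on chromosome 4 (x axis), A0R open and A3R filled, same replicate numbers joined. Red marks the 6 genes called higher; CXCL3 and the platelet chemokine genes between them were not called.

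Other inflammatory genes rose in smaller numbers. Of 35 inflammatory cytokine and NF-kB feedback genes, 4 (11.4%) were called higher and 0 lower, 7 higher with the replicate block, and the median change was 0.26. TNFSF15, a cytokine of the TNF family, rose from 4.77, 4.93 and 5.28 to 6.74, 6.96 and 6.65 (change 1.79, SE 0.14, limma adjusted p = 9.47e-06). ICAM1, an adhesion molecule that binds leukocyte integrins, rose from 6.52, 6.59 and 6.72 to 8.30, 7.47 and 7.82. TNFAIP3, a feedback inhibitor of NF-kB, rose by 0.71 (limma adjusted p = 0.0153) and was not called without A0R replicate 2, A3R replicate 1 or A3R replicate 2 (0.0545 to 0.0833). In the complement list 2 of 20 were called higher and 0 lower: C3, the central complement component, from 7.74, 7.33 and 7.99 to 9.15, 8.87 and 9.12, and C1R from 7.79, 7.65 and 7.85 to 8.60, 8.56 and 8.56. Without A3R replicate 1 the complement list held 4 calls, 3 higher and 1 lower. SERPINA3, an acute-phase protease inhibitor, rose from 5.60, 5.66 and 6.11 to 7.46, 7.48 and 7.21. LGALS3BP, a secreted glycoprotein that binds galectins, was outside the listed groups and was chosen after its values were seen: it rose from 8.44, 8.36 and 7.71 to 9.72, 9.66 and 9.30 (change 1.39, SE 0.20, limma adjusted p = 0.00188).

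Interferon response genes had small positive changes. Calls were made for 5 of the 43 tested (11.6%), all higher, 39 had a positive change, and the median was 0.27. With the replicate block 11 were called higher, and 7 on the 6 A549 arrays alone with the block. Fewer were called in most fits with 1 array left out: 0 without A0R replicate 1 or without A0R replicate 2, 2 without A3R replicate 1 or 3, 3 without A3R replicate 2 and 5 without A0R replicate 3. After median centring of the arrays 3 were called. The median change without A0R replicate 2 was 0.20, and calls over all genes also fell with an array left out. At an unadjusted p below 0.05 there were 16 of the 43, against 9.92% of all genes. MX1, an antiviral GTPase, rose by 0.64 (limma adjusted p = 0.0143, and 0.0601 to 0.0702 without A0R replicate 1, A0R replicate 2, A3R replicate 1 or A3R replicate 3). SAMD9 and SAMD9L, antiviral restriction factors that adjoin each other and CDK6 on chromosome 7, rose by 0.74 and 0.63 and were lost without A0R replicate 1 or 2, among others (0.0537 to 0.0691). Of the antigen presentation genes 0 of 22 were called by limma (4 at an unadjusted p below 0.05), and 1 with the replicate block, or 0 when that fit held only the A549 arrays.

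Among 27 prostaglandin and eicosanoid genes, 3 were called higher and 1 lower, and 5 higher and 2 lower with the replicate block. TBXAS1, thromboxane synthase, went from 6.77, 6.90 and 6.95 to 8.01, 8.37 and 8.18 (change 1.31, SE 0.11, limma adjusted p = 1.26e-05). PTGS2, the inducible cyclooxygenase, rose by 0.85 (limma adjusted p = 0.0125) and HPGD, which degrades prostaglandins, by 0.69 (0.0317). PTGS2 was not called without A0R replicate 1, A3R replicate 1 or A3R replicate 2 (0.0605 to 0.0666), and HPGD kept its call only where A0R replicate 3 was the array left out (0.0808 to 0.151 without the others). CYP4F11, a fatty acid hydroxylase, fell by 0.94 (limma adjusted p = 0.00953, 0.0513 without A0R replicate 1). The list's count of 4 fell to 1 without A0R replicate 1 and to 2 without A3R replicate 1 or 2.

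**Figure D5:**
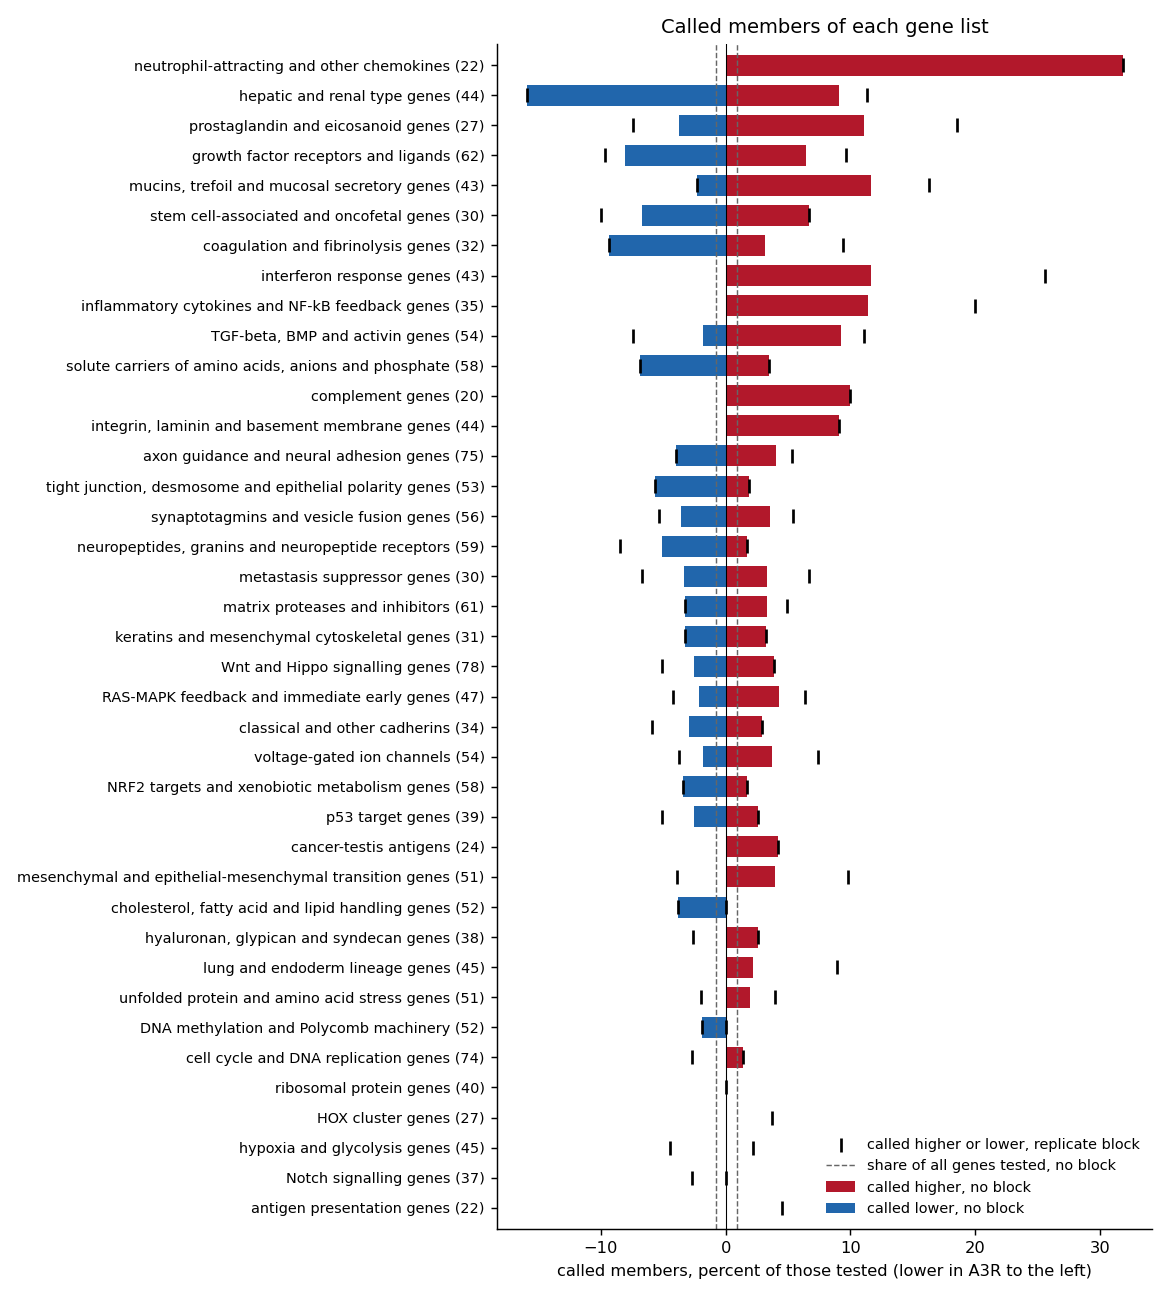
Share of tested members called higher (red, right) and lower (blue, left) without a block for each gene list (number tested in brackets), in percent, with black ticks for the replicate block. Dashed lines mark the shares among all genes, 0.934% higher and 0.745% lower; chemokines reach 31.8% higher.

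Adhesion genes changed in a few named members. Of 34 cadherins 1 was called higher, CDH2, and 1 lower, CDH1, the gene of E-cadherin, which read 9.53, 9.52 and 9.55 in A0R and 8.93, 8.77 and 8.34 in A3R (change -0.85, SE 0.15, limma adjusted p = 0.00922). A0R arrays of CDH1 lay within 0.04 of each other, while A3R arrays spread over 0.59. EPCAM, an epithelial adhesion molecule, read 7.92, 7.89 and 8.26 against 7.63, 7.50 and 7.68 and was not called (limma adjusted p = 0.625). Of 53 tight junction, desmosome and polarity genes 1 was called higher and 3 lower. CLDN4, a claudin of tight junctions, rose from 4.77, 4.84 and 4.69 to 5.81, 5.85 and 5.73 (change 1.03, SE 0.16, limma adjusted p = 0.0022), and LIN7A is the largest fall of the list. DSC3, a desmosomal cadherin, fell by 0.70 and AP1M2, a sorting adaptor of epithelia, by 0.57, and both lost their call without A0R replicate 1, A0R replicate 2 or any A3R array (limma adjusted p 0.0729 to 0.158). The list's 4 calls became 2 without those arrays and 5 without A0R replicate 3. KRT19, a simple epithelial keratin, rose from 8.87, 8.79 and 8.81 to 10.03, 10.01 and 9.84, and KRT4, a mucosal keratin, fell from 6.97, 7.14 and 7.63 to 6.37, 6.34 and 6.38. These were the only 2 called of 31 keratin and cytoskeletal genes.

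Of 51 mesenchymal and epithelial-mesenchymal transition genes, 2 were called higher and 0 lower, EFEMP1 and the fibrillin gene FBN2, and 5 higher and 2 lower with the replicate block. FBN2 read 4.53, 4.74 and 4.80 in A0R and 6.42, 5.92 and 6.22 in A3R (change 1.50, SE 0.13, limma adjusted p = 1.53e-05). The count was 4 without A0R replicate 3 and 3, all higher, on the 6 A549 arrays alone without a block. VIM, the vimentin gene, read 11.46, 11.25 and 11.33 against 11.31, 11.23 and 11.30 and was not called. The transition regulators ZEB1 (0.05, SE 0.12), ZEB2 (0.42, SE 0.12, limma adjusted p = 0.121) and SNAI2 (-0.03, SE 0.24) were not called. SNAI2 read 5.29 on A0R replicate 2 and 4.13 to 4.80 on the other A549 arrays, and its change without that array was 0.31 (limma adjusted p = 0.724). LUM and COL5A2, matrix genes, were called higher with the block but not without it in the fits of 12 arrays. Their changes were 0.91 and 0.68 (limma adjusted p = 0.0173 and 0.0127 with the block and 0.0831 and 0.145 without). LUM read 3.12 to 3.33 in A0R, below the mean 20th percentile of 3.48, so the size of its change depends on background. It is also a fibroblast marker, and with the block 2 of 11 fibroblast markers were called, LUM and C1R. On the 6 A549 arrays alone 2 of the 11 were called without a block as well. The part of other cells in these values was not tested.

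Of 44 integrin, laminin and basement membrane genes, 4 were called higher and 0 lower, 27 had a positive change, and the median change was 0.15. COL4A6 rose from 5.39, 5.48 and 5.21 to 6.88, 6.82 and 6.64 (change 1.42, SE 0.13, limma adjusted p = 2.74e-05) and COL4A5, its neighbour of opposite direction on the X chromosome, from 4.90, 5.10 and 5.10 to 5.99, 6.13 and 6.13 (change 1.05, SE 0.11, limma adjusted p = 9.31e-05). Both encode type IV collagen chains, and the nearest arrays of the groups were 1.16 and 0.89 apart. ITGA2, a collagen receptor subunit, rose from 7.90, 8.45 and 7.89 to 8.89, 8.92 and 8.81. A0R replicate 2 was its highest A0R array, and the change was 0.79 with and 0.97 without it (limma adjusted p = 0.00726 and 0.000448). COL4A2 rose by 0.43 (limma adjusted p = 0.0362) and kept its call only where A0R replicate 1 was the array left out (0.0641 to 0.155 without the others). HAS2, a hyaluronan synthase, was the only gene called of 38 hyaluronan, glypican and syndecan genes, and 2 were called with the block, or 1 on the A549 arrays alone with the block. It read 6.15, 5.73 and 6.50 in A0R and 7.72, 7.13 and 7.95 in A3R, again ordered alike by replicate number in both groups, and its limma adjusted p was 0.00595 without and 1.67e-05 with the block. Of 61 proteases and inhibitors 2 were called higher and 2 lower. ADAMTS9, a matrix metalloprotease, fell from 6.29, 6.58 and 6.46 to 5.06, 5.04 and 5.01 (change -1.40, SE 0.18), and SLPI fell as given above. MMP7, matrilysin, rose by 0.81 (limma adjusted p = 0.0121, 0.0507 and 0.055 without A3R replicate 2 and without A3R replicate 3).

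Liver and kidney type genes changed in both directions. The 44 tested held 11 calls (25.0%), 4 higher and 7 lower, with a median change of -0.03. SLC17A3, a renal and hepatic urate and phosphate transporter, fell from 6.38, 6.33 and 7.001 to 4.77, 4.35 and 4.37 (change -2.07, SE 0.18, limma adjusted p = 2.37e-05). SLC17A1, a transporter of the same family, fell from 4.86, 4.32 and 5.06 to 3.50, 3.50 and 3.47, and the alcohol dehydrogenase gene ADH6 from 4.29, 5.00 and 5.77 to 3.18, 3.31 and 3.15. These A3R values are near or below the mean 20th percentile of 3.48, so that the sizes of both falls depend on background. ADH1C (change -1.01, SE 0.14), ITIH2, an inter-alpha-trypsin inhibitor heavy chain (-1.20, SE 0.18), and TF, transferrin (-0.85, SE 0.12), also fell. ADH1C read 3.70, 3.39 and 3.85 in A3R, again close to 3.48, so the size of its fall depends on background too. CPS1, the entry enzyme of the urea cycle, rose from 10.28, 10.48 and 10.51 to 11.91, 11.79 and 11.56 (change 1.33, SE 0.21, limma adjusted p = 0.00286), in the same list. Of 32 coagulation and fibrinolysis genes 1 was called higher and 3 lower, 2 in all without A0R replicate 2, A3R replicate 1 or A3R replicate 2. F5, coagulation factor V, fell from 6.97, 7.36 and 7.13 to 4.40, 4.39 and 4.70 (change -2.65, SE 0.14, limma adjusted p = 4.68e-07). FGB, the fibrinogen beta chain, fell from 7.57, 8.19 and 8.94 to 6.33, 5.96 and 6.78 (change -1.88, SE 0.27, limma adjusted p = 0.00166). The genes of the other fibrinogen chains, FGA (-0.49, SE 0.14, limma adjusted p = 0.101) and FGG (-0.30, SE 0.15, 0.476), were not called; a difference between their changes and that of FGB was not tested.

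Transporters and metabolic genes were called in small numbers. Of 58 solute carriers of amino acids, anions and phosphate, 2 were called higher and 4 lower. SLC7A7, a cationic amino acid exchanger subunit, fell from 10.17, 9.97 and 10.21 to 8.82, 8.55 and 8.45 (change -1.51, SE 0.14, limma adjusted p = 3.48e-05). SLC16A7, a monocarboxylate transporter, rose from 4.80, 5.27 and 4.72 to 6.37, 6.15 and 5.86, and SLC6A14, an amino acid transporter, from 2.94, 3.13 and 2.92 to 3.96, 4.09 and 3.75. The A0R values of SLC6A14 lie below the mean 20th percentile of 3.48, and its change of 0.93 depends on background. PPARGC1A, a coactivator of mitochondrial biogenesis, fell from 5.55, 5.51 and 5.85 to 4.81, 4.34 and 4.40 (change -1.12, SE 0.14, limma adjusted p = 0.000494). PDK4, a kinase that limits pyruvate oxidation, fell by 1.06 (limma adjusted p = 0.0162, and 0.0513 to 0.0762 without A0R replicate 1, A3R replicate 2 or A3R replicate 3). They were the 2 called of 52 lipid handling genes.

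Of 43 mucin, trefoil and mucosal secretory genes, 5 were called higher and 1 lower. MUC13, a membrane mucin, rose from 7.57, 7.96 and 8.91 to 9.31, 9.54 and 9.93 (change 1.45, SE 0.25, limma adjusted p = 0.0076), with replicate 3 highest and replicate 1 lowest in both groups. CEACAM6, a carcinoembryonic antigen family member, rose from 8.97, 9.30 and 9.88 to 10.63, 10.67 and 10.80. TM4SF20, a 4-pass membrane protein of gut epithelium, fell from 9.68, 9.67 and 10.47 to 8.47, 8.64 and 8.63. TFF1, a trefoil peptide (0.93), TSPAN8, a tetraspanin (0.83), and GALNT5, which starts O-glycan chains (0.89), were also called higher, each with a call lost in at least 3 of the 6 fits without 1 array (limma adjusted p up to 0.117). Genes called higher in the list numbered 2 without A0R replicate 1 or A3R replicate 2 and 3 without A3R replicate 3.

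Neuropeptide and neural genes moved in both directions. Of 59 neuropeptide, granin and neuropeptide receptor genes 1 was called higher and 3 lower. NPY1R, a receptor of neuropeptide Y, fell from 5.23, 5.48 and 5.93 to 3.60, 3.46 and 3.68 (change -1.97, SE 0.16, limma adjusted p = 1.21e-05), with A3R close to the mean 20th percentile of 3.48. DDC, which makes dopamine and serotonin from their precursors, fell from 8.77, 8.71 and 9.24 to 8.06, 7.99 and 7.87 (change -0.93, SE 0.14, limma adjusted p = 0.00258). NTSR1, a receptor of neurotensin, read 4.67, 4.76 and 5.10 against 4.88, 5.04 and 5.10 and was not called. STC1, a secreted glycoprotein hormone, rose by 0.96 (limma adjusted p = 0.0277) and was not called when any A549 array other than A0R replicate 3 was left out (0.0651 to 0.132). Of 56 synaptotagmin and vesicle fusion genes 2 were called higher and 2 lower. SYT6 fell from 5.93, 6.17 and 5.86 to 5.11, 5.31 and 5.15 (change -0.80, SE 0.12), against the rise of SYT13. The other called members were VAMP8 (0.65) and SNAP25 (-0.54), both of the vesicle fusion machinery and each without a call in 4 of the 6 fits that left out 1 array (limma adjusted p 0.0528 to 0.112), and the count of 4 became 2 without A0R replicate 1 or A3R replicate 2.

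Among 75 axon guidance and neural adhesion genes, 3 were called higher and 3 lower. SEMA3A, a secreted semaphorin, rose from 8.24, 8.40 and 8.20 to 9.47, 9.37 and 9.23 (change 1.08, SE 0.10, limma adjusted p = 2.75e-05). EPHA7, an ephrin receptor, fell from 4.85, 5.22 and 5.42 to 3.49, 3.67 and 3.86 (change -1.49, SE 0.14, limma adjusted p = 4.04e-05), and PLXNC1, a semaphorin receptor, by 0.64 (SE 0.11). DPYSL3 and ADGRL2 are described above, and NRCAM, a neural adhesion molecule, rose by 0.72 (limma adjusted p = 0.0317) with a call that held in only 1 of the 6 fits without 1 array, that without A3R replicate 3. Of 54 ion channels 2 were called higher and 1 lower, and 6 in all with the replicate block. Beside the fall of SCN9A, KCNN4, a calcium-activated potassium channel, rose by 0.97 (limma adjusted p = 0.0143, and 0.0561 to 0.0725 without A0R replicate 3, A3R replicate 1 or A3R replicate 2) and TRPA1, an irritant-sensing channel, by 0.82 (0.00953, and 0.0501 and 0.0558 without A0R replicate 1 and without A0R replicate 2).

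Of 62 growth factor receptors and ligands, 4 were called higher and 5 lower (14.5%), and the median change was -0.03. ERBB3, a receptor of neuregulins, fell from 6.15, 6.35 and 6.36 to 5.23, 5.39 and 5.19 (change -1.02, SE 0.12, limma adjusted p = 0.000257). NRG4, a ligand that binds ERBB4, fell from 5.42, 5.47 and 5.51 to 4.76, 4.50 and 4.25, and FGFR4 from 8.87, 8.78 and 8.73 to 7.95, 8.06 and 7.45. IGFBP2, which binds insulin-like growth factors, fell from 9.14, 9.01 and 9.26 to 8.03, 8.01 and 8.09 (change -1.09, SE 0.11, limma adjusted p = 7.37e-05). KITLG, the ligand of KIT, rose from 6.76, 6.78 and 6.66 to 7.65, 7.55 and 7.40. EGFR (0.01, SE 0.14) and ERBB2 (-0.13, SE 0.14) were not called. Of the remaining called members, BDNF (0.84), LIFR (0.70) and FGFR1 (-0.59) each lost the call in at least 3 fits without 1 array. Of 47 RAS-MAPK feedback genes 2 were called higher and 1 lower, 5 in all with the block, 1 with the block on the A549 arrays alone and 1 without A0R replicate 1. PHLDA1, an early response gene, rose from 9.05, 9.23 and 8.91 to 9.73, 9.65 and 9.73 (change 0.64, SE 0.10, limma adjusted p = 0.00355).

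In the list of 54 TGF-beta, BMP and activin genes 5 were called higher and 1 lower, and 6 higher and 4 lower with the replicate block. Without A0R replicate 2 the counts were 3 and 0. FSTL4, a follistatin-like gene, rose from 6.14, 5.87 and 6.42 to 7.76, 7.14 and 7.75 (change 1.40, SE 0.18, limma adjusted p = 0.000729). PMEPA1, a TGF-beta target that dampens the pathway, rose from 8.83, 8.56 and 9.50 to 10.26, 9.88 and 10.43. GREM1, a BMP antagonist, rose from 4.53, 4.65 and 4.56 to 5.79, 5.09 and 5.87 (limma adjusted p = 0.0089, 0.0518 without A3R replicate 1), and the ligand gene TGFB1 rose by 0.54 (0.0133, and 0.0619 and 0.0635 without A0R replicate 2 and without A3R replicate 1). The BMP targets ID1 (-0.58) and ID3 (-0.75) were called lower only with the block (limma adjusted p = 0.0367 and 0.00822). ID3 read 9.86, 9.32 and 9.12 in A0R and 9.06, 8.60 and 8.39 in A3R, where the groups lie close but each pair of equal number falls by a similar amount. Of 78 Wnt and Hippo genes 3 were called higher and 2 lower, 3 in all when A0R replicate 1 or 2 was left out and 2 when A3R replicate 1 was. PRICKLE2, of planar cell polarity, rose by 0.86 (SE 0.13) and AMOTL1, an angiomotin, fell by 0.72 (SE 0.13). Of 37 Notch genes 0 were called by limma (6 at an unadjusted p below 0.05, a level met by 9.92% of all genes tested). With the block 1, NOTCH3, was called lower (-0.78, limma adjusted p = 0.0261).

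Other lists held few called genes. In DNA methylation and Polycomb machinery 1 of 52 was called, DNMT3B, a de novo DNA methyltransferase, which fell from 6.29, 6.30 and 6.17 to 5.44, 5.79 and 5.58 (change -0.65, SE 0.11, limma adjusted p = 0.0052). DNMT1 (0.01, SE 0.11), DNMT3A (-0.10, SE 0.10) and EZH2 (0.11, SE 0.12) were not called. LIN28B, an oncofetal RNA-binding protein that blocks let-7, fell from 5.74, 5.72 and 5.55 to 4.93, 4.92 and 4.66 (change -0.83, SE 0.11, limma adjusted p = 0.00119), and was 1 of 4 called of 30 stem cell-associated genes, a count of 1 without A0R replicate 1, A0R replicate 2 or A3R replicate 1 and of 2 without A3R replicate 2 or 3. SOX2 rose by 0.90 (limma adjusted p = 0.0331) and was called in only 1 of the 6 fits without 1 array; it was also the 1 called of 45 lung and endoderm genes, of which 4 were called with the block but 0 with the block on the A549 arrays alone. NKX2-1, a lung lineage factor (0.09), and CDKN2A, a cell cycle inhibitor (0.01), were not called. In the cell cycle list 1 of 74 was called higher, CDK6 (0.51, limma adjusted p = 0.0266), which was not called without any 1 of the 6 arrays (0.0659 to 0.099), and 3 were called with the block, 1 on the A549 arrays alone with it. MKI67, the proliferation marker, read 9.81, 10.01 and 9.59 against 9.78, 10.01 and 9.48, the same order of replicates in both groups.

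Hypoxia and glycolysis genes (45 tested), HOX genes (27) and ribosomal protein genes (40) had 0 called by limma, with 8, 4 and 0 at an unadjusted p below 0.05, against 9.92% of all genes. With the replicate block 3, 1 and 0 were called, and 0 in each list when that fit held only the A549 arrays. Among the hypoxia and glycolysis genes 1 was called higher without A0R replicate 3 and 1 lower without A3R replicate 3. Of 51 unfolded protein and amino acid stress genes 1 was called, 3 with the block and 1 with the block on the A549 arrays alone. The count was 0 without A0R replicate 1, A0R replicate 2 or A3R replicate 2 and on the 6 A549 arrays without a block. In the NRF2 and xenobiotic list 1 was called higher and 2 lower of 58, with 1 in all left in 5 of the 6 fits without 1 array. Of 39 p53 targets 1 was called higher and 1 lower, and 0 were called in any fit that left out an array other than A3R replicate 3. Metastasis suppressor genes had 2 of 30 called, CDH1 lower and LIFR higher, and 4 with the block (2 on the A549 arrays alone with it). Without A0R replicate 2, A0R replicate 3, A3R replicate 1 or A3R replicate 2 the count was 1.

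The replicate block on all 12 arrays added 262 genes. With the block on the 6 A549 arrays alone 294 genes were called, 218 of them among the 284. Most of the 262 were therefore not called within A549 alone. EEF1A2, a tissue-restricted translation elongation factor, read 8.31, 8.16 and 7.49 in A0R and 9.07, 9.11 and 8.43 in A3R. The groups nearly touch, and the same-number pairs differ by 0.76, 0.95 and 0.94, and the limma adjusted p was 0.181 without and 0.000152 with the block. BCAT1, which breaks down branched-chain amino acids, rose by 0.91 (limma adjusted p = 0.0559 without and 0.0312 with the block), and TGFA, a ligand of the EGF receptor, by 0.69 (0.0627 and 0.0288). SESN3, a stress-induced inhibitor of mTORC1 signalling, fell by 0.91 (0.137 and 0.0263). DDIT4, another inhibitor of that pathway, fell by 0.67 (0.164 and 0.00151), from 9.27, 9.09 and 8.64 to 8.56, 8.50 and 7.92. Of these genes, EEF1A2, SESN3 and BCAT1 were called with the block on the 6 A549 arrays alone as well (limma adjusted p = 0.00646, 0.00548 and 0.00894).

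Leaving out A0R replicate 2 ended the call of 120 of the 284 genes, and none of the 284 changed sign. The median size of the 284 changes was 0.79 with and 0.76 without that array, and the largest shift was 0.24, in MT2A, a metallothionein, whose call was lost when any A549 array but this one was left out (limma adjusted p 0.0934 to 0.133). The adjusted p of the lost genes rose to at most 0.195. The largest changes among them were those of SERPINB7, a protease inhibitor (-1.16 with and -1.18 without the array, limma adjusted p = 0.0416 and 0.115), and TCIM, a regulator of Wnt signalling (1.10 and 1.01, limma adjusted p = 0.0143 and 0.0757). Called only without the array were 10 genes. ANTXR2, an anthrax toxin receptor that binds collagen IV, read 6.47 on A0R replicate 2, 4.46 and 4.87 on the other A0R arrays and 5.39, 5.65 and 5.57 in A3R. Its change was 0.27 with the array and 0.87 without it (limma adjusted p = 0.915 and 0.0132). SULT2B1, a sterol sulfotransferase, read 7.26 on that array and 8.02 and 8.07 on the other A0R arrays, and its change was -0.76 with and -1.02 without it (limma adjusted p = 0.111 and 0.0159).

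The changes in A549 were set against those in HTB56 with a test of the difference between them. Over all genes 11.8% differed between the lines and 19.5% were called between the HTB56 groups. Of the 30 largest changes in A549, 28 differed from HTB56 at a limma adjusted p below 0.05. These genes were chosen for the size of their A549 change, which largely fixes the sign of the difference, so that count cannot be read against the share over all genes. CXCL8 rose by 1.48 in A549 and fell by 1.55 in HTB56, CXCL1 rose by 1.67 and fell by 0.95, and DNAJC12 rose by 1.46 and fell by 1.32. HAS2 had nearly equal rises, 1.48 in A549 and 1.46 in HTB56 (limma adjusted p = 0.00595 and 0.000768), and the difference of 0.01 had an SE of 0.36 (limma adjusted p = 0.99). TNFSF15 was called higher in both lines, by 1.79 and 0.64, and ADGRL2 lower in both, by -1.86 and -0.47, each with the larger change in A549 (limma adjusted p of the difference 0.00152 and 0.000355). Of the 284 genes, 46 were called in the same direction in HTB56 and 49 in the opposite direction. Over all genes the HTB56 calls were not split by direction, so neither count can be read against a share.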

How the data were processed

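Messenger RNA was measured on 12 Affymetrix arrays, 3 per group, and the 6 A549 arrays are the subject here. The deposited values are log2 signals which the authors made, per the submitters' processing notes, with Affymetrix Expression Console and RMA. Their versions were not given in the sources used here. This method subtracts background, equalises array distributions and summarises probes, so changes of dim genes are compressed and a uniform shift of all mRNA is removed. It covered 33297 probe sets, of which 0 lacked a value, and 0 arrays were identical.

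Platform annotation gave 1 symbol to 19460 probe sets, several to 1754 and none to 12083. The Entrez identifier of 19405 used probe sets matched RefSeq (GRCh38.p14), and 24 probe sets of genes with a Y-chromosome location were left out. Probe sets above the 20th percentile of their array (mean 3.48) on at least 3 of 12 arrays were kept, the brightest per gene, giving 16922 genes. Of 692 genes with several probe sets, 12 had a called one, and calls never ran opposite ways within a gene.

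One mean per group was fitted to all 12 arrays with limma 3.58.1 in R 4.3.3 (lmFit, eBayes, two-sided, Benjamini-Hochberg over all genes, threshold 0.05), after a check on simulated data. Alternatives were the replicate block, the 6 A549 arrays alone, each array left out, filters, probe set choice, median centring, cyclic loess, eBayes settings, array weights, a threshold of 0.01 and a treat test against a fold of 1.2. Tables and figures used Python 3.11.15, pandas 2.3.3, numpy 2.4.6 and matplotlib 3.10.9. Precision is limited by having 3 arrays per group. The labels give the groups the same replicate numbers without their meaning. After subtracting group means, A0R and A3R arrays of equal number correlated over genes at 0.27, 0.35 and 0.45. Those of unequal number correlated at -0.38 to 0.12, values that the subtraction itself pulls down when the others are positive. Arrays of equal number thus deviated together within A549. Whether they are paired samples or share a processing batch was not tested. The block on 12 arrays takes this deviation to be the same in both lines.

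The members and gene lists were chosen with earlier results of these data known, so their counts are descriptions, and no set test was run. Genes were named by rule: the top 15 changes in each direction among called genes with non-overlapping groups, leaving out non-coding, pseudogene, olfactory receptor, histone and uncharacterised symbols; the largest changes called only with the block or lost or gained without A0R replicate 2; up to 6 called members per list and direction; a fixed set including CDH1, VIM, ZEB1, EZH2 and the CXC chemokines; and genes in runs of neighbours. LGALS3BP, MT2A, PF4, PF4V1, PPBP, AKR1B10, AKR1C1 and ALDH1A1 fall outside that rule, as do the genes under other observations, which were chosen after their values were seen. Promoter motifs were searched as exact letters on both strands.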

Additional observations from a re-analysis of the deposited data

Results flagged for a closer look

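For 28 of the 30 largest changes in A549, the change differed from that of the same gene in HTB56 by a test of the difference (limma, adjusted over all genes). The 30 were chosen for the size of their A549 change, so the sign of each difference is largely fixed by that choice, and the share over all genes (11.8%) is no yardstick for them. Values are the A549 change minus the HTB56 change on the log2 scale, the adjusted p of each difference lay below 0.05 and 3 arrays per group entered.

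Among the chemokines that rose in A549 the differences were 3.02 for CXCL8, 2.62 for CXCL1, 1.86 for CXCL2 and 1.75 for CXCL5. Adhesion and matrix genes gave 2.09 for CDH2, 1.60 for EFEMP1 and 1.41 for FBN2. The vesicle gene SYT13 gave 2.76 and the axonal gene DPYSL3 2.02. For the co-chaperone gene DNAJC12 the difference was 2.78, for GASK1B 2.07, for the acute-phase gene SERPINA3 1.61, for FAM133A 1.38 and for TNFSF15 1.15.

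Among genes that fell in A549, the secreted factors gave -4.25 for NTS, -2.67 for F5, -1.90 for FGB, -2.30 for SLPI and -1.74 for OLFML3. Receptors and channels gave -2.59 for SCN9A, -1.74 for NPY1R, -1.39 for ADGRL2, -1.26 for EPHA7 and -1.41 for IL1R2. Transport and metabolic genes gave -2.26 for SLC17A3, -1.36 for SLC7A7 and -1.76 for ADH6, whose A3R level is below the 20th percentile. The scaffold gene LIN7A gave -2.33. Of the 30 genes, HAS2 and IQGAP2 did not differ at this threshold.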

How the results depend on the processing

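Of 284 calls (158 higher, 126 lower), the replicate block gave 546 (295 higher, 251 lower), the 6 A549 arrays alone 172 (101 and 71), a threshold of 0.01 133 (73 and 60) and a treat test against a fold of 1.2 95 (52 and 43). With 1 A549 array left out, counts ranged from 167 to 253, with 88 to 158 higher and 69 to 96 lower. The use of the block rests on arrays of equal number deviating together, not on the labels. The blocked fit of 12 arrays dropped 0 of the 284, that of the 6 A549 arrays 66. Filters, probe set choice, median centring, cyclic loess, eBayes settings and array weights kept the total, the higher count and the lower count within 1.5 times, and 0 of the 128 called named genes changed sign under the alternatives run. Of these, 63 passed treat, 94 the 6-array fit and 86 the fit without A0R replicate 2. The count of 28 genes that differ from HTB56 lay between 27 and 29 in the alternatives that kept the HTB56 arrays; it was not computed at a threshold of 0.01. Dim signals near 3.48 and 3 arrays per group limit small changes.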

Other observations

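Of the 123 genes called in all the fits that define that set, 51 fall outside the rule by which genes were named. Those given here were chosen after their values were seen. DOCK8, an exchange factor for CDC42, fell from 5.35, 5.62 and 5.36 in A0R to 4.07, 4.06 and 3.97 in A3R (change -1.41, SE 0.10, limma adjusted p = 3.32e-06). ELMO1, a partner of DOCK exchange factors, fell from 8.14, 8.98 and 9.28 to 7.26, 7.27 and 7.57 (change -1.43, SE 0.23). ADD3, an adducin that caps actin filaments, fell by 1.05 (SE 0.13) and MYO1A, a brush border myosin, by 1.17 (SE 0.18). ALDH2, an aldehyde dehydrogenase, fell by 0.69 (SE 0.10) and PECR, a peroxisomal reductase, by 1.14 (SE 0.16).

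Genes outside the rule that rose included UPK1B, a uroplakin of urothelium, from 7.84, 7.81 and 8.58 to 9.43, 9.29 and 9.79 (change 1.43, SE 0.18, limma adjusted p = 0.000574). PRDM1, a transcriptional repressor known from lymphocytes, went from 5.01, 5.05 and 4.80 to 6.09, 6.07 and 5.84 (change 1.05, SE 0.13). WLS, which carries Wnt proteins to the cell surface, rose by 1.01 (SE 0.14), ANTXR1, a collagen-binding receptor, by 0.97 (SE 0.12) and TINAGL1, a matrix glycoprotein, by 1.07 (SE 0.14). INPP4B, a lipid phosphatase, rose by 1.08 (SE 0.13).

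Of 86 genes whose median in A549 exceeds that in HTB56 by at least 4 log2 units, 13 were called, 9 higher and 4 lower. Without A0R replicate 2 the count was 10. Over all genes tested 1.68% were called. The 86 are bright in A549 by choice, and the A3R arrays helped to set that choice, so their count cannot be read against this share. The called genes included CPS1, MUC13, UPK1B, CCL2 and CEACAM6, which were higher, and CDH1, SLC7A7 and TM4SF20, which were lower. On chromosome 2, 3 of 6 neighbouring tested genes were called lower, TMEM37, EPB41L5 and TMEM185B. When 1 A549 array was left out, TMEM37 and TMEM185B each lost the call in 5 of the 6 fits and EPB41L5 in all 6.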
